A study of Mus musculus with 2 samples.

Results

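Annexins are proteins that bind phosphatidylserine and other acidic membrane phospholipids when calcium is present, and they thereby link membranes to each other, to the cytoskeleton and to extracellular matrix. In growth plate cartilage they are known as major proteins of matrix vesicles, the small membrane-bound particles that bud from chondrocytes and in which mineral first forms. The 9 genes described here were Anxa1, Anxa2, Anxa3, Anxa4, Anxa5, Anxa6, Anxa7, Anxa8 and Anxa11. They were found as the array probes that carry a RefSeq transcript of one of these genes, which gave 13 probes out of 55678 and 9 genes out of 20660. A total of 4 members had more than 1 probe and 5 had 1 probe, and the brightest probe represented each gene. The transcripts were NM_010730 for Anxa1, NM_007585 for Anxa2, NM_013470 for Anxa3, NM_013471 for Anxa4, NM_009673 for Anxa5, NM_013472 for Anxa6, NM_009674 for Anxa7, NM_013473 for Anxa8 and NM_013469 for Anxa11. All 13 probes were well above background on both arrays.

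RNA came from primary chondrocytes of 6-day-old C57BL/6J mice. The cells lay for 48 h in fibronectin-coated silicon chambers, and 1 sample was taken before loading and 1 sample 24 h after cyclic stretching of the chamber by 10% for 30 min at 0.5 Hz. Each sample was hybridised to 1 one-colour array, and both arrays lay on 1 slide. With 1 array per time point there was no replicate error, and values are given without tests or p-values. The control was the culture before loading, so strain cannot be told apart from an additional 24 h in culture. How many animals contributed to each culture is not given in the sources used here.

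The value of a probe is the background-subtracted spot intensity deposited by the authors, in arbitrary units. Its log2 ratio is the 24 h level less the level before loading, once each array is set to its 75th percentile of intensity, which lay at 466 on both arrays. The error that follows a ratio after ± was computed from the scanner software's error of both spots, and holds error within an array but none between samples. Levels of different probes were not compared, since brightness depends on the probe as well as on the RNA. The share of spots well above background was 57.7% to 59.1%, and 0 spots were saturated. The chondrocyte label was checked against 12 cartilage markers, among them Col2a1, Acan and Sox9. All 12 were detected and 0 of them passed 2-fold, where 1.83% of all detected genes were lower and 0.668% higher. Markers of other cells were detected as well, with 8 of 8 fibroblast and 7 of 8 macrophage markers. Before loading, the brightest fibroblast marker was Col1a2 with an intensity of 85821, and the dimmest was Thy1 with 204. Itgam was the brightest macrophage marker with 25496. The other detected macrophage markers ran from 20.9 for Ptprc to 3646 for Csf1r. The share of each cell type was not measured. In bulk RNA, fewer cells of one kind and less RNA per cell cannot be told apart.

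Among the annexins, Anxa8 fell 2.58-fold after loading and the other 8 members stayed within 2-fold. The log2 ratio of Anxa8 was -1.37, and those of the other members ran from -0.24 for Anxa2 to 0.32 for Anxa3. Thus 1 of 9 members was more than 2-fold lower and 0 were more than 2-fold higher. Of all 14231 genes detected on both arrays, 1.83% (260 genes) were more than 2-fold lower and 0.668% (95 genes) were higher. With scaling to the array medians these counts were 205 and 130, and the share of higher genes among them went from 26.8% to 38.8%. All 9 members had a mean level above the 75th percentile, and of the 8564 genes above that level 0.899% were more than 2-fold lower and 0.315% higher. A single member past 2-fold describes Anxa8 and not the family, whose median log2 ratio was 0.01 beside -0.01 for all detected genes.

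**Figure D1:**
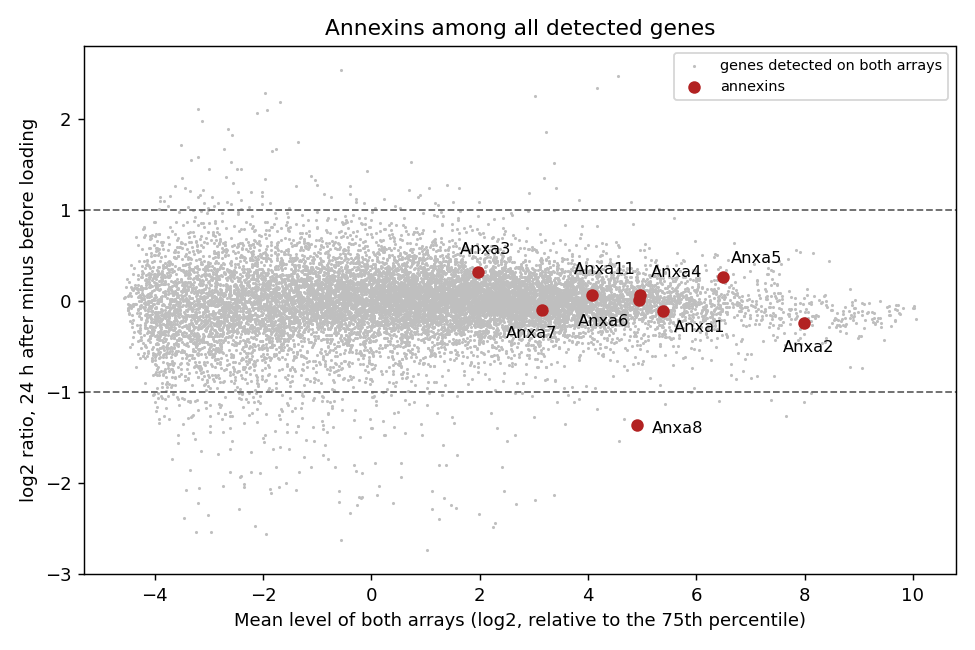
Log2 ratio of every gene detected on both arrays against its mean level on the 2 arrays (log2, relative to the 75th percentile), 1 grey point per gene, with the 9 annexins in red and 2-fold marked by dashed lines. Anxa8 lies at -1.37, below the dashed line, and the other 8 annexins lie between -0.24 and 0.32.

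Anxa8 is known as an annexin of hypertrophic chondrocytes, the enlarged cells at the mineralizing end of the growth plate. It was measured by a pair of probes for the transcript NM_013473. The first was printed as 10 spots on each array. Before loading, the intensity of these spots had a lowest value of 21668, a median of 22494 and a highest value of 24166. At 24 h, the lowest was 8153, the median 8750 and the highest 9322. The spots of the 2 arrays did not overlap, and the dimmest spot before loading was still 2.32-fold brighter than the brightest spot at 24 h. The log2 ratio of single spots ranged from -1.45 to -1.33 with an SD of 0.04 over the 10 spots, which is technical spread within these arrays. The mean of the spots was -1.37 with a within-array error of 0.06, where the errors of single spots are taken as independent.

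The second probe of Anxa8, printed once, went from 4520 to 1749. Its log2 ratio was also -1.37 ± 0.20, so that the estimates of the 2 probes differed by 0.0008. When 2 errors are allowed for, the second probe alone reached -0.96, just inside 2-fold. A total of 268 probes were printed at least 8 times and detected on both arrays, and 5 of these (1.87%) were more than 2-fold lower. Anxa8 ranked 2 from the lowest among them, 113 among all 14231 detected genes and 37 among the 8564 abundant genes. On the array, 2 of the 10 spots had at least 3 neighbours within 100 µm, of 29 each, that were also more than 2-fold lower. Here and below, such counts take in all neighbours, whether or not they were well above background. How many other spots had as many was not worked out. Neighbours of this probe that were well above background on both arrays had a median log2 ratio of -0.06. Without the 2 spots the log2 ratio of Anxa8 was -1.38.

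**Figure D2:**
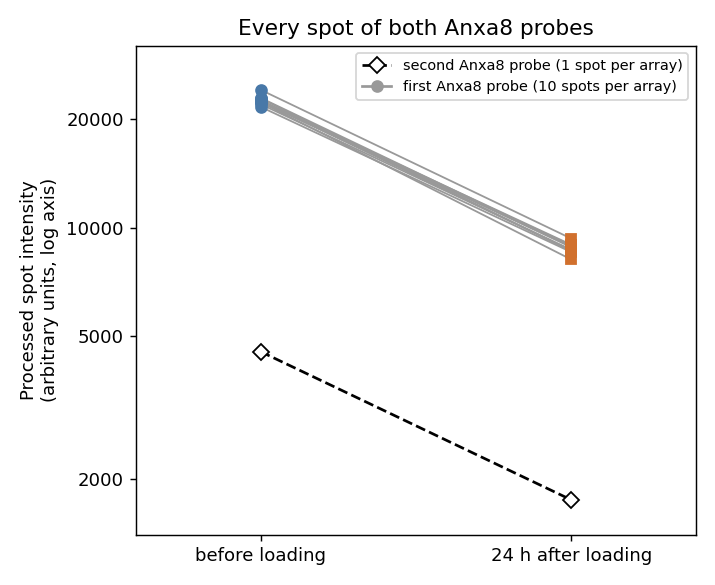
Processed spot intensity (log axis) of each Anxa8 spot before and 24 h after loading, with lines joining the spot at the same array position. The 10 spots of the first probe drop from 21668 to 24166 down to 8153 to 9322, and the second probe drops in parallel from 4520 to 1749.

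The upstream sequence of Anxa8, the one member past 2-fold, is shown as context for its locus, with that of Anxa5, a matrix vesicle annexin that was not lower, for comparison. Both are the 250 bases before the transcription start, 5′ to 3′ on the strand of the gene, from RefSeq on GRCm38.p6. Anxa8 lies at chr14:34085729-34085978 on the plus strand and Anxa5 at chr3:36475888-36476137 on the minus strand. On either strand, capitals mark a match to the core bound by Runx factors, which is TGTGGT. They also mark the AP-1 motif, whose letters are TGANTCA, as well as the TATA box and the NF-κB consensus.
Anxa8: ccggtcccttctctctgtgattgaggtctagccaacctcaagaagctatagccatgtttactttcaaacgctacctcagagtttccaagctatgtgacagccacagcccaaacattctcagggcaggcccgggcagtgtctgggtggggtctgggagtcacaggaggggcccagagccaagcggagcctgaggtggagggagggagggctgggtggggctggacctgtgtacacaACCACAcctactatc
Anxa5: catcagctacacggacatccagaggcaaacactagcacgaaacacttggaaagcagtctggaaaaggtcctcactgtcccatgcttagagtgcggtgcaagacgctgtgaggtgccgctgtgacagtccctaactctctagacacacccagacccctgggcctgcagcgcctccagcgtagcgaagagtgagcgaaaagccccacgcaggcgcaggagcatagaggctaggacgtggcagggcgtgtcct

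The Anxa8 window held 1 match to the Runx core, read on the opposite strand and beginning 15 bases before the start, and 0 matches to the other 3 motifs. The Anxa5 window held 0 matches to any of the 4. The GC box (GGGCGG) and the E box (CANNTG) were also searched and are not marked. Anxa8 held 0 of both, and Anxa5 held 0 GC boxes and 1 E box, beginning 208 bases before the start. Over 32851 promoter windows of the same length, 14.0% held the Runx core, 6.75% the AP-1 motif, 12.4% the TATA box, searched as TATAAA, and 7.25% the NF-κB consensus. The GC box was in 32.7% and the E box in 66.2%. Among the members with a window, only Anxa8 held the Runx core, Anxa2 held 1 AP-1 motif, Anxa4 held 1 match to the NF-κB consensus beginning 55 bases before a start, and Anxa1 and Anxa2 held a TATA box beginning 32 and 17 bases before the start. These letters are a description of the sequence, and binding was not measured. The motifs were chosen with the ratios known. Windows were found for 7 of the 9 members, and Anxa3 and Anxa6 had none in the table.

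The genes next to Anxa8 on the chromosome were looked at after its ratio was seen. RefSeq lists A630023A22Rik as overlapping Anxa8, and its probe was not well above background on both arrays. Antxrl went from an intensity of 107 to 96.1 (log2 ratio -0.15 ± 0.22). On the other side, Npy4r went from 36.6 to 25.2, which at this dim probe gave -0.53 ± 0.34 as the log2 ratio. The probes of Gm5460, Gprin2 and Syt15 were not well above background on both arrays. The farthest of those looked at, Shld2, had a log2 ratio of -0.49 ± 0.20. None of these detected neighbours passed 2-fold, where 1.83% of all detected genes were lower and 0.668% higher.

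Anxa5, Anxa2 and Anxa6 are the annexins best known from matrix vesicles, where Anxa5 also binds collagens at the vesicle surface. The intensity of Anxa5 was 38470 before loading and 46137 at 24 h. The log2 ratio was thus 0.26 ± 0.20, which is 1.20-fold higher. Across the alternatives run for it the ratio stayed above 0, between 0.23 and 0.40. Anxa2, which forms a complex with S100a10 and gathers plasminogen and its activators at the cell surface, went the other way. Its intensity was 129497 before loading and 109363 afterwards (log2 ratio -0.24 ± 0.20). Spots around its only probe that were well above background on both arrays had a median log2 ratio of -0.17. Anxa2 lies in the bright range. Of the 251 detected genes whose mean level was above 7 on the log2 scale, 195 had ratios below 0, with a median of -0.13. Over all detected genes, 52.4% had ratios below 0. Under normalizations that follow intensity, the ratio of Anxa2 was -0.11 with loess and -0.08 with quantile normalization. RefSeq also lists an Anxa2 pseudogene, Gm41080, and whether the probe distinguishes it was not tested. Anxa6, whose core of repeats is doubled, was level, with 14313 before loading and 14368 at 24 h and a log2 ratio of 0.01 ± 0.20.

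Anxa1 is secreted as well as cytosolic and acts on formyl peptide receptors to limit inflammation. Its brighter probe gave 20180 and then 18729 (log2 ratio -0.11), and its second probe 6300 and 5658, a log2 ratio of -0.15. Both ratios were smaller than their within-array error of 0.20. Anxa4, which is best known from membranes of epithelial cells, had 14304 and 14922, with a log2 ratio of 0.06. Neither gene differed between the arrays by more than the software's own error.

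Anxa3, known from granules of neutrophils, had the highest ratio among the brightest probes with scaling to the 75th percentile. Anxa5 was above it with quantile normalization (0.40 against 0.33) and loess (0.36 against 0.32), and the dimmer probe of Anxa7 also had a higher ratio. The intensity of Anxa3 was 1626 before loading and 2027 at 24 h, 1.25-fold more, and its log2 ratio 0.32 ± 0.20. Of all detected genes, 87.8% had a lower ratio. At 1.56 times its error, Anxa3 was the furthest from 0 of the 8 members other than Anxa8 when the ratios of the brightest probes are read against their own error at this scaling.

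Anxa7 and Anxa11 have long amino-terminal tails ahead of the annexin core. Anxa7, first described as synexin, promotes fusion of granule membranes, and Anxa11 tethers RNA granules to lysosomes. The brighter probe of Anxa7 had 4263 before loading and 3994 at 24 h (log2 ratio -0.09). Its dimmer probe had 444 and 572 (log2 ratio 0.37), so the probes of Anxa7 differed in sign and the direction of this gene is not settled. The ratio of Anxa7 was above 0 under 3 of 9 alternatives. The brighter probe of Anxa11 had 7664 and 7998 (log2 ratio 0.06), and the dimmer one 121 and 143 (log2 ratio 0.25, within-array error 0.22).

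**Figure D3:**
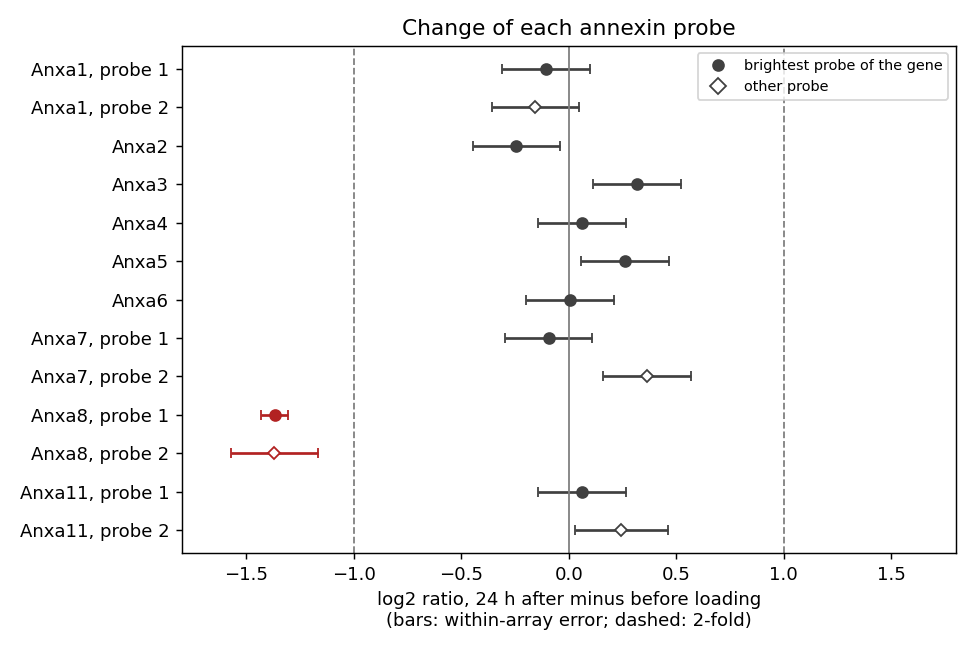
Log2 ratio (24 h relative to before loading) of each of the 13 annexin probes with its within-array error as the bar, filled circles for the brightest probe of a gene, open diamonds for other probes and dashed lines at 2-fold. Both Anxa8 probes lie at -1.37, and the Anxa7 probes lie on either side of 0, at -0.09 and 0.37.

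Read against the error within an array, Anxa8 was the only one of the 9 brightest probes more than 2 errors from 0 with scaling to the 75th percentile. With median scaling Anxa3, at 0.42, also passed this limit. Of the other 8, Anxa2, Anxa3 and Anxa5 were more than 1 error from 0, and 5 were within 1 error. A probe with 1 spot needs a log2 ratio of 0.41, or 1.33-fold, to stand 2 errors from 0. For bright spots this error is the software's 10% of the signal on an array, and not a measured spread. Over the 268 detected probes printed at least 8 times, the log2 ratio had a median SD between spots of 0.09. With 1 array per time point, no limit of detection between samples can be given. The spots around the annexin probes that were well above background on both arrays had median log2 ratios between -0.20 and 0.09.

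**Figure D4:**
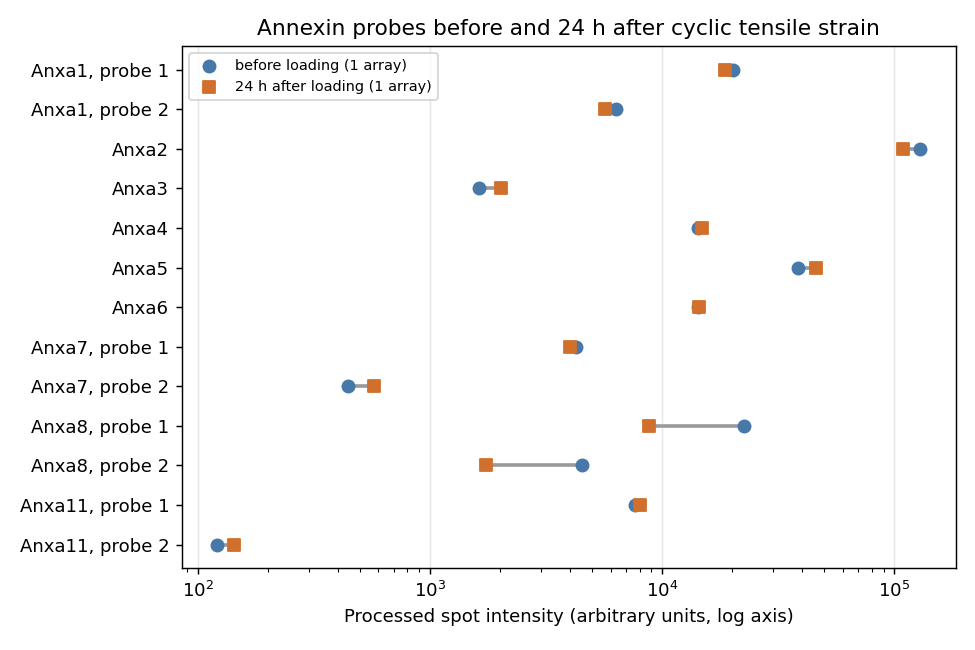
Processed spot intensity (log axis) of each annexin probe before loading (blue circles) and 24 h after loading (orange squares), 1 array each, with the mean of 10 spots for the first Anxa8 probe. The markers of most probes nearly touch, while those of Anxa8 are separated, 22590 against 8748 for probe 1 and 4520 against 1749 for probe 2; rows are not compared with each other.

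Genes of the related lists, which hold annexin partners but also genes of mineral deposition, membrane repair and the plasmin system, had ratios on both sides of 0. Of these, 3 were more than 2-fold lower, namely S100a4, S100a6 and, from the mineral list, Ibsp. Of 10 genes for annexin-binding S100 and other EF-hand proteins, 9 were detected, 2 were more than 2-fold lower and 0 higher, beside 1.83% and 0.668% of all detected genes. The median log2 ratio was -0.08 and the highest was 0.41 for S100b. S100a4, which binds Anxa2, had intensities of 30956 before loading and 11381 at 24 h on its brighter probe (log2 ratio -1.44) and 18969 and 6597 on the other (log2 ratio -1.52). The spot of the brighter probe had 28 neighbours, of which 5 were more than 2-fold lower, and that of the other had 26, of which 0 were. Neighbours well above background on both arrays had a median log2 ratio of -0.25 around the brighter probe and 0.005 around the other. S100a6, which binds several annexins, Anxa11 among them, had 112440 and 53020, a log2 ratio of -1.08 ± 0.20. It came inside 2-fold under 4 of 8 alternatives, the smallest difference being -0.92 with quantile normalization. The spot of the only S100a6 probe had 28 neighbours, of which 3 were more than 2-fold lower. Those well above background on both arrays had a median log2 ratio of -0.01. S100a10, the partner of Anxa2, had 8685 and 7024, a log2 ratio of -0.31, beside -0.24 for Anxa2 itself. With quantile normalization S100a10 had -0.27 and Anxa2 had -0.08. S100a11, the partner of Anxa1, had a log2 ratio of -0.08, beside -0.11 for Anxa1.

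Among 15 genes of matrix vesicles and mineral deposition, 14 were detected, and 10 of these had ratios below 0. Over all detected genes, 52.4% had ratios below 0. The median log2 ratio of the list was -0.27, beside -0.01 for all detected genes. Ibsp, the bone sialoprotein gene, was the only one of the list past 2-fold, where 1.83% of all detected genes were lower and 0.668% higher. Its intensities were 259 before loading and 61.9 at 24 h, a log2 ratio of -2.06 ± 0.23. Its second probe was well above background on the array before loading only. Alpl, the alkaline phosphatase that releases phosphate at the vesicle membrane, had 873 and 471, a log2 ratio of -0.89 ± 0.20. The spot of its only probe had 30 neighbours, of which 3 were more than 2-fold lower. Those well above background on both arrays had a median log2 ratio of -0.04. Enpp1, which makes pyrophosphate, an inhibitor of mineral growth, had a log2 ratio of -0.53 ± 0.21. Ank, through which pyrophosphate leaves the cell, had 0.07. Phospho1, a phosphatase inside vesicles, had -0.61 at a dim probe with an error of 0.35. With normexp background correction it had -0.16. That setting adds an offset of 50, where the intensities of this probe were 44.5 and 29.1.

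Genes of membrane repair and phosphatidylserine exposure, among them dysferlin and scramblases, included 14 members, of which 12 were detected and 0 passed 2-fold, with a median log2 ratio of 0.002 and the highest ratios at Dysf (0.62) and Plscr3 (0.44). Of 12 genes for annexin ligands and receptors and for the plasmin system, 9 were detected and 0 passed 2-fold. The median was -0.08, between -0.87 for Tnc and 0.67 for Plat, the tissue plasminogen activator. Over all detected genes, 1.83% were more than 2-fold lower and 0.668% higher, so counts of 0 do not set lists this short apart. Fpr2, a receptor for the Anxa1 protein, had signals at background on both arrays. Of the 3 other annexin genes, Anxa9 had a log2 ratio of -0.38 ± 0.21 and Anxa13 -0.53 ± 0.34, both within 2-fold, and Anxa10 was not well above background on both arrays.

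Of 8 markers of hypertrophic chondrocytes, all detected, 3 were more than 2-fold lower, namely Col10a1 (-1.54), Ihh (-1.30) and Ibsp (-2.06), where 1.83% of all detected genes were. The other 5 were within 2-fold, with log2 ratios of -0.89 for Alpl, -0.48 for Spp1, -0.28 for Panx3, -0.05 for Runx2 and 0.49 for Mmp13, the only one above 0. The summed intensity of the list was 26224 before loading and 11885 at 24 h, of which Col10a1 alone made up 18910 and 6485, and the median log2 ratio was -0.68. Alpl, Spp1 and Ibsp in this list are also among the matrix vesicle genes. Of the 12 cartilage markers, 9 had ratios above 0 and the median was 0.12. Over all detected genes, 52.4% had ratios below 0 and the median was -0.01. Of 8 fibroblast markers, 0 passed 2-fold, and the median was 0.07. Markers of other cell types were detected for 7 of 8 genes of macrophages, 3 of 6 of endothelium and 4 of 7 of skeletal muscle. For erythroid cells, osteoblasts and tenocytes, 1 of 5, 2 of 5 and 4 of 4 were detected. Among these, 0 genes were more than 2-fold lower and 2 were higher, beside 1.83% and 0.668% of all detected genes. The 2 were Ptprc of the macrophage list (log2 ratio 1.14 ± 0.35) and Myh8 of the muscle list (log2 ratio 1.15 ± 0.22). Ptprc went from 20.9 to 46.1. Its level before loading was near the lowest intensity called well above background, 17.3. Of the 5 osteoblast markers, Sp7 (log2 ratio -0.64 ± 0.25) and Phex (-0.34 ± 0.32) were detected and within 2-fold. Dmp1 and Ifitm5 were not well above background on both arrays, and Bglap had no probe. The part of the hypertrophic cells in the lower level of Anxa8 was not tested.

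**Figure D5:**
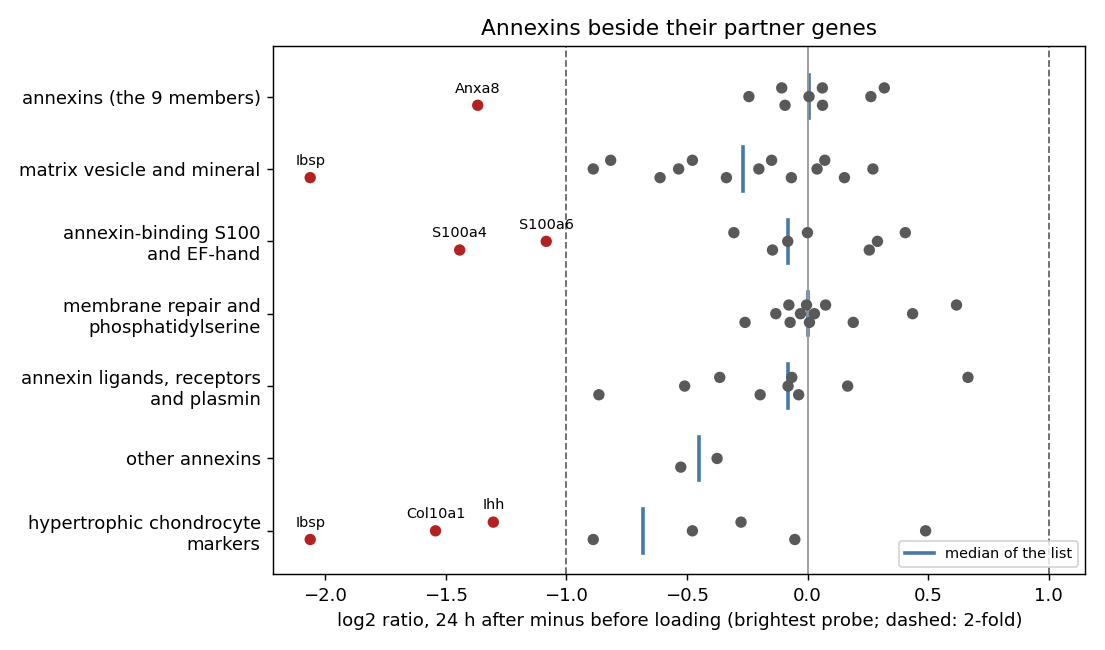
Log2 ratio (24 h relative to before loading) of the brightest probe of each detected gene in the annexin family, in 5 lists of related genes and in the hypertrophic chondrocyte markers, 1 point per gene, with the blue bar at the median of a list. Genes past 2-fold are red and named; the annexin median is 0.01 with Anxa8 alone at -1.37, and the hypertrophic median is -0.68.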

How the data were processed

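Total RNA of primary chondrocytes was labelled with Cy3 and hybridised to SurePrint G3 Mouse Gene Expression arrays, 1 per time point. The authors deposited the spot intensity from Agilent Feature Extraction 10.10.1.1, background-subtracted and not normalized between arrays, with the software's errors, flags and spot positions. A deposited value table held the same intensity within 0.497%.

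Outlier spots of either array (141 before loading, 138 at 24 h) were dropped and the remaining spots of one probe were averaged on the log2 scale. Each array was set to its 75th percentile. Accessions were named through a RefSeq table of GRCm38.p6, used for names, gene order and promoter sequence only (27235 probes matched). A gene counts as detected where both arrays flag its brightest probe as well above background. The members, gene lists and rules were chosen with earlier results of these data known. All members and their probes are named, and of the related genes those past 2-fold and a few partners fixed by name. Genes beside Anxa8 on the chromosome and the count over bright genes were added after the ratios were seen. The code for the calls was run on simulated arrays in which 200 genes were changed by a log2 ratio of 2, well past the limit. All 200 were called in the right direction, and 0 of 14032 unchanged genes were called. The simulated noise was smaller than the software's error and held no variation between samples. The run therefore checks the code and not the calls made on these arrays.

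Alternatives used median, quantile, loess (span 0.3) and spike-in scaling, normexp (offset 50), the value table, other probes of a gene and other filters. Normexp, quantile and loess ran with limma 3.58.1 in R 4.3.3, the rest with Python 3.11.15, pandas 2.3.3, numpy 2.4.6 and matplotlib 3.10.9. The number of arrays limits the precision.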

Additional observations from a re-analysis of the deposited data

How the results depend on the processing

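No paired analysis was possible because each time point has a single array. Under all 11 alternatives run for the counts, 1 annexin was more than 2-fold lower and 0 were higher. Anxa8 was past 2-fold under all 10 alternatives run for it. Some alternatives could hardly differ. Looser detection filters could not alter the annexin count, since all 13 probes were well above background on both arrays. The value table held the same intensity within 0.497%, and keeping outlier spots left Anxa8 at -1.37. The log2 ratio of Anxa8 became -1.27 with median scaling, -1.30 with quantile normalization and -1.28 with spike-in scaling, which moves it by more than its within-array error of 0.06. Median and spike-in scaling raised every log2 ratio by 0.10 and 0.08. Anxa7 became 0.14 with the mean over its detected probes and 0.37 with its dimmer probe, since these disagree. The other 7 annexins moved by less than their errors. The median of the annexins moved by at most 0.10. The median of the other annexin genes went from -0.45 to -0.21 with normexp correction, and the medians of 3 lists (S100 and EF-hand, membrane repair, ligands and plasmin) crossed 0 under 2 alternatives each. Normexp correction moved Ibsp, with intensities of 259 and 61.9, from -2.06 to -1.37. This setting adds an offset of 50 to every intensity, which by arithmetic draws the ratios of dim probes toward 0. How much of the shift came from the offset was not worked out.

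Over all genes, 117 were lower and 38 higher with normexp correction, 983 and 492 with no filter on dim probes, 507 and 192 when 1 array sufficed for detection, and 99 and 25 when 2-fold had to be passed by 2 errors. Among abundant genes, 43 were higher with median scaling, and 35 were lower and 7 higher with the allowance of 2 errors. Normexp on the mean spot signal was not run, because only the median signal is in these files. Dropping the Anxa8 spots with fallen neighbours, the dimmer probes and the counts over all genes were added after seeing the data. Signal over background limits dim genes: intensities down to 17.3 (before loading) and 17.8 (24 h) were called well above it.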
